A study of Homo sapiens with 60 samples.

Results

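The transcripts described are 9 of the 60675 genes in the count table, listed by name and matched to symbols through their gene IDs: 5 cytochrome P450 genes of drug oxidation (CYP3A4, CYP3A5, CYP3A7, CYP2B6 and CYP2C8), 2 efflux pump genes (ABCB1 and ABCC2), and NR1I2 and NR1I3, which encode the nuclear receptors PXR (pregnane X receptor) and CAR (constitutive androstane receptor). RNA-seq gave their levels in HepG2, an established human hepatocellular carcinoma line, after 24 h. The 60 libraries fell into 20 groups of 3. The groups were a DMSO vehicle (0.1% in the labels but 2% in the series' design text, so its level is uncertain), wortmannin at 10 µM as the positive control, and water extracts of 6 herbs, each at 3 doses (high, medium, low). The extracts, named below by their first words, were Aucklandiae Radix, Zizyphi Semen, Longan Arillus, Schisandrae Fructus and Liriopis seu Ophiopogonis Tuber, dosed at 500, 100 and 20 µg/mL. The doses of Polygalae Radix were 450, 90 and 18 µg/mL. No group is labelled as a reference activator of PXR or CAR such as rifampicin.

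PXR and CAR are sensors of foreign chemicals in the liver and gut. Each binds DNA together with RXR and switches on genes that oxidise drugs (P450 enzymes) and pump them or their conjugates out of the cell (ABC transporters). In liver, CYP3A4 is the best known PXR target and CYP2B6 the best known CAR target, whereas HepG2 and other hepatoma lines are known to keep little of the P450 expression of hepatocytes. Between genes, levels are compared here only as CPM per kilobase of exon, and within a gene as CPM, where CPM is the read count relative to library size after TMM scaling. Exon length is that of all annotated exons of a gene merged, which can exceed the length of the transcripts expressed.

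Total counts ran from 20.21 to 36.41 M per library (median 25.76 M). The labels do not say that replicates came from separate cultures, so p-values reflect the scatter among these samples alone, and it may be technical. Sample codes put the vehicle and wortmannin each in a set of their own and the extracts by pairs in 3 more (Schisandrae and Liriopis; Zizyphi and Longan; Aucklandiae and Polygalae), so every comparison with the vehicle crosses sets, and high against low doses stay within a set. In the vehicle, genes of the mitochondrial genome took 17.7% ± 2.00 (SD, n = 3) of all counts, against 11.8% to 16.6% in the means of the 19 treated groups; their part in the results was not tested. All 10 hepatocyte markers checked were expressed in every library (ALB at 6077 to 8960 CPM), and 3 of 4 blood cell markers (PTPRC, CD3E and HBB) were at 0 in all, with CD68 at 32.2 to 61.6 CPM. In such bulk samples, fewer cells with a transcript and less of it per cell cannot be told apart.

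The CYP3A genes lie side by side on chromosome 7 and are close copies, and what was measured for each can be read against the start of its promoter. The 250 bases before the gene start are shown, 5′ to 3′ on the strand of the gene, from RefSeq's GRCh38.p14 (chr7:99784185-99784434 for CYP3A4, chr7:99679997-99680246 for CYP3A5 and chr7:99735197-99735446 for CYP3A7, all on the minus strand). Capitals mark the 18-base stretch that in CYP3A4 holds the everted repeat ER6, known as a PXR element, and the stretch most like it in the other two genes.
CYP3A4: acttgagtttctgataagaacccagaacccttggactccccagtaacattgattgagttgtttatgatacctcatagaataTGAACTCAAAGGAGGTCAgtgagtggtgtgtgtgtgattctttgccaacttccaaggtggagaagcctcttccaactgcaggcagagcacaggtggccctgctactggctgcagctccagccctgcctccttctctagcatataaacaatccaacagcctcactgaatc
CYP3A5: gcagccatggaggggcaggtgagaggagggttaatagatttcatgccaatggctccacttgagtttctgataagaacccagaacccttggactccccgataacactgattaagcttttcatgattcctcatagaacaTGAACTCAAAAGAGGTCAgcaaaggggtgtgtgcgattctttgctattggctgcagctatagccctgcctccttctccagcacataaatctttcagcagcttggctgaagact
CYP3A7: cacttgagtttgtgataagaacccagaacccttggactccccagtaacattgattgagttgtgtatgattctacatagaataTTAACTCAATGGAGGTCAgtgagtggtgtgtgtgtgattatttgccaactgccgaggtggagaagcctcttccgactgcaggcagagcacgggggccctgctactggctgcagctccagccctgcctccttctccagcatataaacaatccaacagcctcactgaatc
Searched as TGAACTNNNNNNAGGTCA on both strands, ER6 letters were found in 3 of 35116 promoter windows of 300 bases (250 before and 50 after the start; 0.00854%), those of CYP3A4, CYP3A5 and ITGB1BP2. Counted from the 5′ end of the stretch in CYP3A4, CYP3A5 carries G11A, which lies between the repeats, and CYP3A7 carries G2T in the upstream repeat and A10T between them. The stretch starts 169 bases before the gene start in CYP3A4, 113 in CYP3A5 and 168 in CYP3A7. These are RefSeq's gene starts; for CYP3A4 and CYP3A5 the GENCODE spans given below begin further upstream, inside the bases shown. Over their aligned bases the windows of CYP3A4 and CYP3A7 were 94.3% identical, those of CYP3A4 and CYP3A5 85.9%, and those of CYP3A5 and CYP3A7 84.3%. The single repeat AGGTCA occurs in 13.8% of all windows and TGAACT in 10.4%. The windows of ABCC2, NR1I3 and CYP2C8 held neither. These are letters in a window, not measured binding.

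Of the 9 genes, 4 were too low to measure or close to it. CYP2B6 (ENSG00000197408, chromosome 19, 40991250 to 41018398, plus strand), a P450 that oxidises bupropion and efavirenz, had 0 to 3 counts per library and was at 0 in 39 of 60. CYP2C8 (ENSG00000138115, chromosome 10, 95036772 to 95069497, minus strand), which oxidises paclitaxel, had 0 to 8 counts. Both failed the filter on low counts and were not tested in any group. CYP3A4 (ENSG00000160868, chromosome 7, 99756960 to 99784265, minus strand), in adult liver the main drug-oxidising P450, had 1 to 12 counts per library with a median of 4, and it passed the filter through 3 libraries only. NR1I3 (ENSG00000143257, chromosome 1, 161229666 to 161238302, minus strand) had 8 to 33 counts, fractional in all 60 libraries; 661 of its exon bases lie opposite exons of TOMM40L, which had a median of 859 counts, and whether the counting used strand is not given in the sources used here. For genes with group totals this low, 0 counts would allow up to 3 counts per group, or between 0.0315 and 0.0448 CPM, a limit that covers counting error only.

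The other 5 were measured in every library. Over all 60 libraries, ABCC2 had 42.6 CPM per kilobase of exon, ABCB1 10.8, NR1I2 3.04, CYP3A7 1.23 and CYP3A5 0.740, against 0.214 for NR1I3, 0.0548 for CYP3A4, 0.05002 for CYP2C8 and 0.00497 for CYP2B6. Per kilobase, both efflux pumps thus stood above PXR, and PXR above each of the P450 genes given here. Other P450 genes were not compared in this way. Among those given, the form known from fetal liver, CYP3A7, and the polymorphic CYP3A5 were above CYP3A4 and both CYP2 genes. The plot of counts per library shows the break between the 5 measured genes and the other 4.

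**Figure D1:**
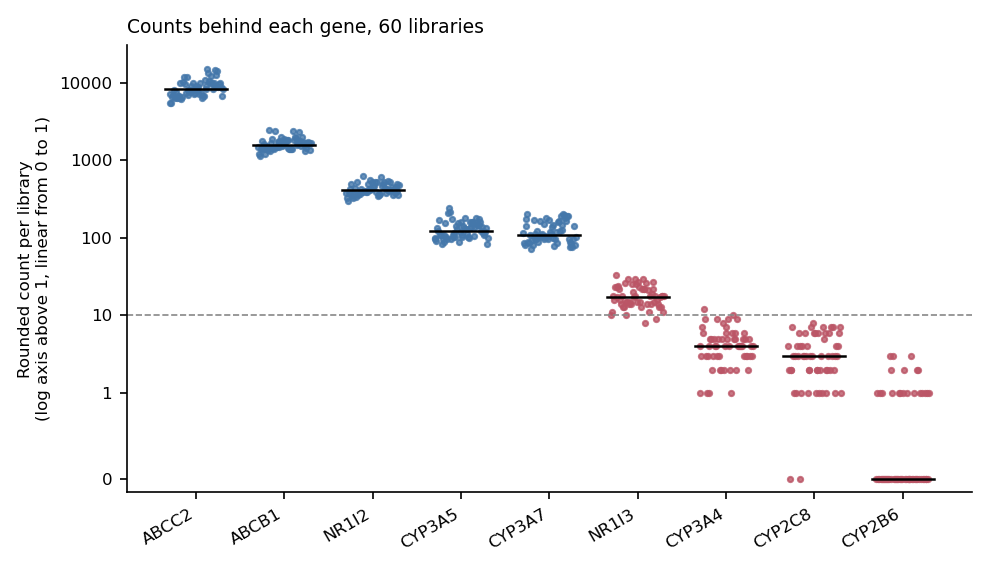
Rounded counts per library (vertical axis, logarithmic above 1 and linear from 0 to 1) for each of the 9 genes, with 1 point per library in group order, a black line at the median and a dashed line at 10 counts. Medians run from 8224 for ABCC2 to 0 for CYP2B6, and the 4 genes in red (NR1I3, CYP3A4, CYP2C8 and CYP2B6) have medians of 17.5 or less.

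Across treatments, changes past the test were rises. With wortmannin, an inhibitor of phosphoinositide 3-kinases, 6 of the 7 testable genes rose (CYP3A4, CYP3A5, CYP3A7, ABCB1, ABCC2 and NR1I2), where 16.4% of all 16517 tested genes were called higher. CYP3A4 was testable only through 3 libraries, wortmannin replicate 3 among them. Without a filter on low counts, CYP3A4, ABCB1 and ABCC2 were not called with wortmannin. At the high doses, 3 of 7 rose with Schisandrae (CYP3A5, ABCB1 and ABCC2; background 8.4% of genes higher) and 3 of 7 with Polygalae (CYP3A7, ABCB1 and ABCC2; background 10.2%). Zizyphi raised 2 (CYP3A5 and ABCC2; background 2.55%), Aucklandiae 2 (CYP3A5 and ABCC2; background 13.6%) and Longan 1 (ABCC2; background 0.92%). Liriopis raised 0 by edgeR (background 0.0424%), with 2 at an unadjusted p under 0.05 and 1, ABCC2, by DESeq2, which gave no adjusted p for 5. Over the 19 comparisons with the vehicle, 28 of 133 tests were called higher and 0 lower, against 3.98% higher over all genes and the same comparisons. At an unadjusted p under 0.05, 57 were higher and 1 was lower. DESeq2 called 28 higher and 0 lower but gave no adjusted p for 48 of the 133. The 3.98% applies to the edgeR adjusted p only, and shares over all genes are not given for the other counts. These 19 comparisons share the 3 vehicle libraries, and the vehicle had the lowest mean of the 20 groups for ABCB1, ABCC2 and NR1I2, so they are not separate evidence of a rise. With wortmannin and the 6 high doses, the median log2 fold change of the 7 genes ran from 0.098 (Aucklandiae) to 0.47 (wortmannin), and that over all tested genes from -0.0055 to 0.0081.

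**Figure D2:**
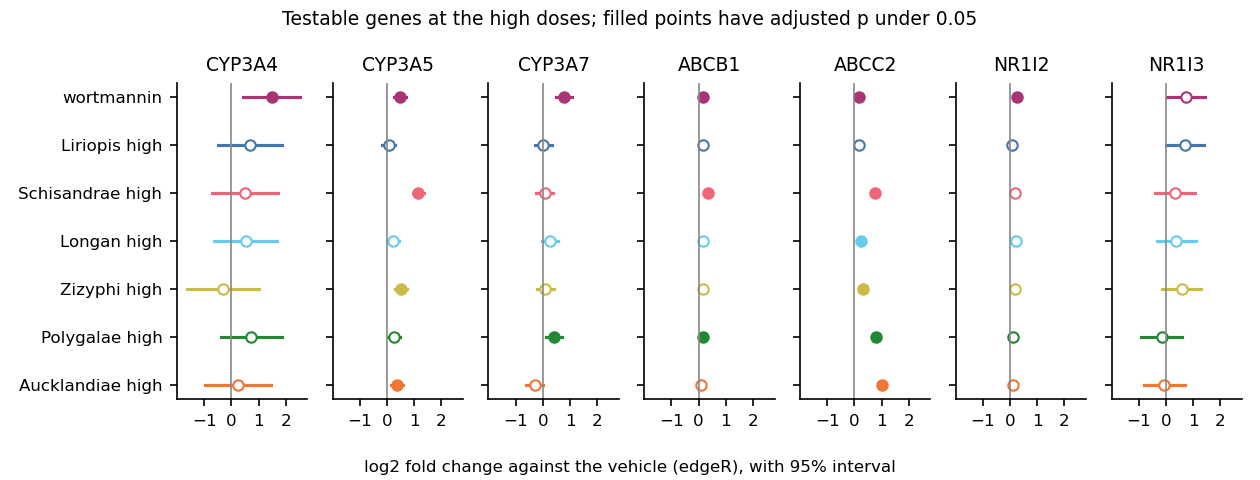
Log2 fold changes against the vehicle (horizontal axis, edgeR, bars give 95% intervals) of the 7 testable genes for wortmannin and the 6 high doses (rows), with filled points for an adjusted p under 0.05. ABCC2 is filled in 6 of 7 rows and reaches 1.01 with Aucklandiae, and the intervals of CYP3A4 and NR1I3 are the widest.

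NR1I2, the gene of PXR (ENSG00000144852, chromosome 3, 119780484 to 119818485, plus strand), moved within a narrow range. Its 3 vehicle libraries were at 15.0, 15.4 and 14.3 CPM and the wortmannin libraries at 17.2, 18.1 and 18.6 CPM. Every wortmannin library lay above every vehicle library, and the rise was 0.27 ± 0.068 on the log2 scale (SE; edgeR adjusted p = 0.00167). That was its only call in 19 comparisons. Group means ran from 14.9 in the vehicle to 18.0 with wortmannin, and libraries of neighbouring groups in that order overlapped throughout. Between high and low doses its log2 fold changes lay between -0.11 and 0.062 and none passed the test. It shares 219 exon bases on the same strand with the gene model AC069444.2, which is not among the genes counted. The expected counts of NR1I2 were whole in every library, and whether some of its reads came from that model was not tested.

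NR1I3, the gene of CAR, had 0 calls among 19 vehicle comparisons by edgeR, with 1 at an unadjusted p under 0.05. DESeq2 also called 0, but gave no adjusted p in 15 of the 19. Vehicle libraries were at 0.400, 0.518 and 0.863 CPM, and wortmannin libraries at 0.726, 0.979 and 1.23 CPM. The groups overlapped (log2 fold change 0.75 ± 0.35, edgeR adjusted p = 0.0945; without vehicle replicate 3 it was 1.10 with an adjusted p of 0.0323). The 95% interval of that log2 fold change ran from 0.049 to 1.45. TOMM40L, on the opposite strand, was at 31.2 to 39.0 CPM in the group means.

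CYP3A4 could be judged only as a handful of counts. It had 1, 4 and 3 counts in the vehicle libraries and 7, 6 and 12 in the wortmannin libraries. The libraries did not overlap, and relative to library size the pooled ratio was 2.90 (exact 95% interval 1.27 to 7.44, counting error only). edgeR called the difference (log2 fold change 1.48 ± 0.53, adjusted p = 0.0253), but the call ended without vehicle replicate 1 or wortmannin replicate 3 (adjusted p between 0.133 and 0.184), and DESeq2 gave no adjusted p at this count. In the other 18 comparisons with the vehicle it was not called; Zizyphi at the medium dose had 6, 10 and 5 counts, and Schisandrae at the high dose 3, 5 and 4. Of its 100-base transcript windows, 0.494% also occur in another gene, most of them in CYP3A5.

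CYP3A5 (ENSG00000106258, chromosome 7, 99648194 to 99680026, minus strand), which shares much of the substrate range of CYP3A4, was highest with Schisandrae at 500 µg/mL. The vehicle libraries were at 3.84, 4.66 and 4.36 CPM and the high-dose Schisandrae libraries at 9.15, 9.25 and 10.1 CPM. These 3 libraries lay above all others of the series, and against the vehicle the rise was 1.15 ± 0.11 on the log2 scale (edgeR adjusted p = 6.11e-12). At 100 and 20 µg/mL of the same extract the means were 4.44 ± 0.429 and 4.47 ± 0.184 CPM (SD, n = 3), each within the spread of the vehicle (4.29 ± 0.418).

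Smaller rises of CYP3A5 were called with Zizyphi at the high dose, wortmannin, Polygalae at the low dose and Aucklandiae at the high dose. High-dose Zizyphi libraries were at 6.07, 6.23 and 5.83 CPM (log2 fold change 0.50 ± 0.11, edgeR adjusted p = 0.004; 0.42 with adjusted p = 0.0829 without vehicle replicate 1). Wortmannin libraries were at 6.13, 5.19 and 6.37 CPM (0.47 ± 0.11, adjusted p = 0.00076). High-dose Aucklandiae libraries were at 5.95, 5.23 and 5.19 CPM (0.35 ± 0.11, adjusted p = 0.0128; between 0.0886 and 0.12 without vehicle replicate 1 or high-dose replicate 1). In these groups, each of the 3 libraries lay above the highest vehicle library. Low-dose Polygalae was called (5.51 ± 0.217 CPM, log2 fold change 0.37 ± 0.11, adjusted p = 0.0159; between 0.0528 and 0.161 without vehicle replicate 1 or low-dose replicates 1 or 2), and the high dose of that extract was not (5.04 ± 0.54 CPM, 0.24 ± 0.11, adjusted p = 0.117). Vehicle replicate 1, without which the calls with Zizyphi, Aucklandiae and Polygalae ended, ranked 2 from the lowest of all libraries in GC slope. That slope, the trend of log2 CPM with the GC content of genes, was -0.118 there and 0.00624 and 0.0125 in the other vehicle libraries. Below Schisandrae at the high dose, groups next to each other in the order of means overlapped throughout.

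CYP3A7 (ENSG00000160870, chromosome 7, 99684957 to 99735196, minus strand), the main CYP3A form of fetal liver, followed another order. The vehicle libraries were at 4.63, 4.05 and 3.84 CPM and the wortmannin libraries at 6.40, 7.37 and 7.64 CPM. That rise, 0.77 ± 0.15 on the log2 scale (edgeR adjusted p = 4.34e-05), was its largest. Polygalae raised it at all 3 doses: the low-dose libraries were at 6.43, 5.85 and 6.94 CPM (0.61 ± 0.15, adjusted p = 0.00268), the medium-dose libraries at 7.23, 6.00 and 6.48 CPM (0.65 ± 0.15, adjusted p = 0.00204), and the high-dose libraries at 6.02, 5.26 and 5.55 CPM (0.42 ± 0.15, adjusted p = 0.0355). The libraries of each dose lay above all 3 vehicle libraries, and the high-dose call ended without vehicle replicates 2 or 3 or high-dose replicates 1 or 3 (adjusted p between 0.0777 and 0.171). Schisandrae at the high dose, where CYP3A5 was highest, left CYP3A7 at 4.26, 4.78 and 4.06 CPM (0.065 ± 0.16, adjusted p = 0.844). Aucklandiae at the medium and high doses had the lowest means, 3.22 ± 0.327 and 3.39 ± 0.234 CPM, with every library under every vehicle library, but neither passed the test (-0.38 ± 0.16, adjusted p = 0.162, and -0.30 ± 0.16, adjusted p = 0.16). Of its 100-base transcript windows, 37.7% also occur in the readthrough gene CYP3A7-CYP3A51P, which had a median of 0 counts, so its level is that of sequence the counting credited to CYP3A7.

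Per kilobase of exon, CYP3A7 lay above CYP3A5 in the vehicle (1.10 against 0.634 CPM), with wortmannin (1.87 against 0.872 CPM) and with high-dose Aucklandiae (0.889 against 0.808 CPM), and below it with high-dose Schisandrae (1.15 against 1.40 CPM). Vehicle counts totalled 286 for CYP3A5 and 282 for CYP3A7, so the order there rests on the merged exon lengths, 6759 and 3810 bases. With high-dose Aucklandiae the total counts, 419 for CYP3A5 and 260 for CYP3A7, had the opposite order. The ratio of their counts, not divided by length, is given to compare groups. In the vehicle, CYP3A5 had 1.04 ± 0.18 times the counts of CYP3A7 (SD, n = 3). The ratio was 2.19 ± 0.28 with high-dose Schisandrae, whose lowest library (1.94) lay above the highest of any other group (1.65), 1.61 ± 0.028 with high-dose Aucklandiae, and 0.832 ± 0.13 with wortmannin, whose libraries (0.705 to 0.957) overlapped with the vehicle (0.828 to 1.15). Close copies can exchange reads. Of the 100-base transcript windows of CYP3A5, 0.17% also occur in another gene, all of them in CYP3A4. Of those of CYP3A7, 0.081% occur in CYP3A4. Whether reads were exchanged was not tested. Counts of the CYP3A genes were also added together before the fit, an alternative added after the data were seen. This sum rose with wortmannin (0.64 ± 0.091 on the log2 scale, edgeR adjusted p = 2.53e-07) and with high-dose Schisandrae (0.65 ± 0.091, adjusted p = 4.26e-07). The sum also rose with Polygalae at the high, medium and low dose (0.30, 0.47 and 0.43; adjusted p = 0.0141, 0.000318 and 0.000679) and with high-dose Zizyphi (0.31 ± 0.093, adjusted p = 0.0463). It was not called with high-dose Aucklandiae (0.045 ± 0.094, adjusted p = 0.781), between the doses of Aucklandiae (0.084 ± 0.093, adjusted p = 0.64) or Zizyphi (0.20 ± 0.089, adjusted p = 0.557), or in the difference between Aucklandiae and Polygalae (0.21 ± 0.13, adjusted p = 0.383), where CYP3A5, fitted on its own, was called higher.

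**Figure D3:**
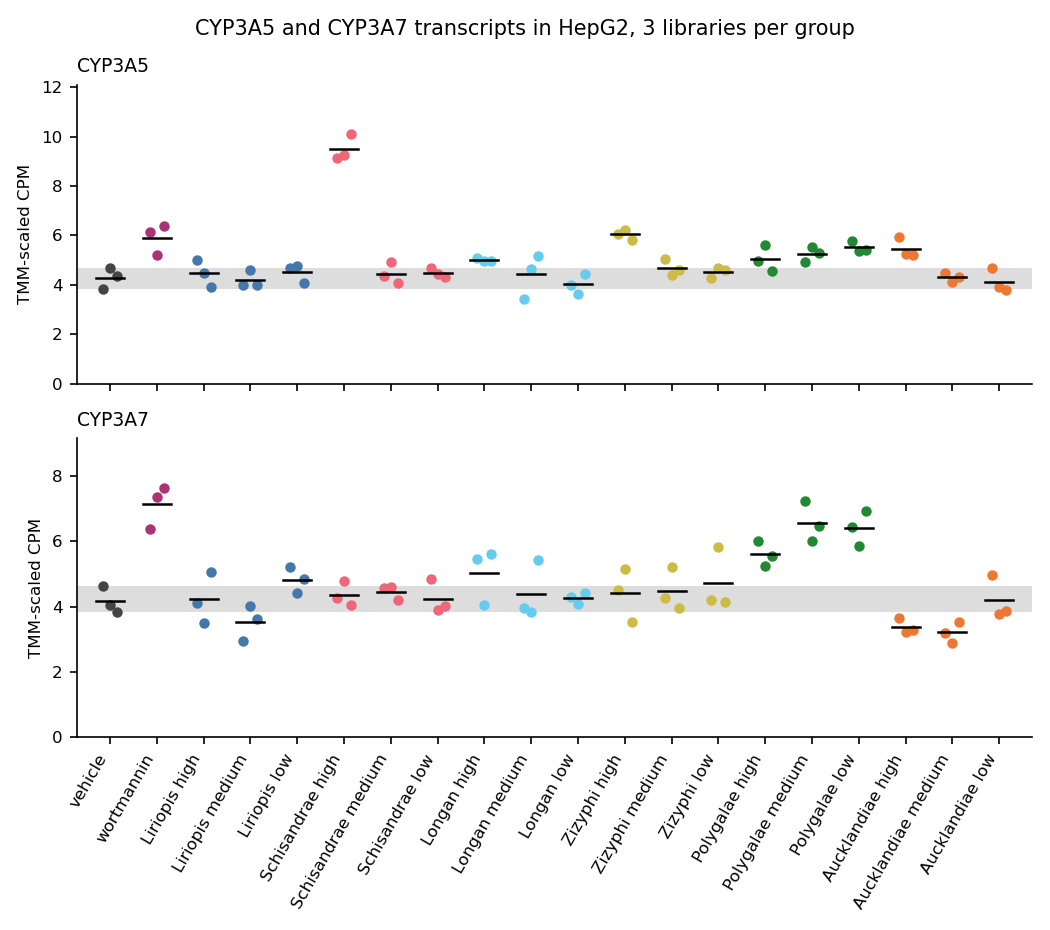
TMM-scaled CPM (vertical axis, from 0) of CYP3A5 (top) and CYP3A7 (bottom) in each of the 60 libraries, by group (horizontal axis), with a line at the mean and a grey band over the range of the vehicle. For CYP3A5 the 3 high-dose Schisandrae libraries stand alone above 9 CPM, while for CYP3A7 the wortmannin and Polygalae groups are highest, with means of 5.61 to 7.13 CPM.

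ABCC2 (ENSG00000023839, chromosome 10, 99782640 to 99852594, plus strand), which encodes MRP2, the pump that moves conjugated bilirubin and drug conjugates into bile, was the gene called most often: it rose in 14 of 19 comparisons with the vehicle. The vehicle libraries were at 281, 253 and 263 CPM. With Aucklandiae at 500 µg/mL they were at 547, 530.2 and 528 CPM, a rise of 1.01 ± 0.040 on the log2 scale (edgeR adjusted p = 3.7e-25). This group stood above every other library of the series.

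Polygalae at 450 µg/mL gave 462, 470.0 and 459 CPM (log2 fold change 0.80 ± 0.040, edgeR adjusted p = 7.4e-21). Schisandrae at 500 µg/mL gave 454, 451 and 449 CPM (0.76 ± 0.040, adjusted p = 3.17e-20). In the order of group means, Aucklandiae, Polygalae and Schisandrae at the high dose did not overlap with each other or with the next group below, Aucklandiae at the medium dose. Zizyphi at the high dose (332 ± 9.67 CPM, 0.32 ± 0.040, adjusted p = 8.15e-07), Longan at the high dose (315 ± 9.76 CPM, 0.25 ± 0.040, adjusted p = 0.000402) and wortmannin (298 ± 1.88 CPM, 0.16 ± 0.040, adjusted p = 0.0011) rose less. Liriopis at the high dose was at 301, 309.7 and 291 CPM, above the vehicle in all 3 libraries, and was not called (0.18 ± 0.040, adjusted p = 0.0652).

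With falling dose, ABCC2 fell towards the vehicle in the 3 extracts with the strongest response. For Aucklandiae the means at 500, 100 and 20 µg/mL were 535 ± 10.3, 357 ± 10.5 and 310.2 ± 4.72 CPM (SD, n = 3), and no library of a dose overlapped with those of the next. Polygalae at 450, 90 and 18 µg/mL was at 464 ± 5.52, 356 ± 13.4 and 321 ± 14.9 CPM, and Schisandrae at 500, 100 and 20 µg/mL at 452 ± 2.55, 327 ± 4.62 and 305 ± 7.09 CPM, again without overlap between doses. All doses of these extracts and of Zizyphi were called against the vehicle. The weakest of these calls each ended when any of several single libraries was left out: low-dose Schisandrae (adjusted p between 0.0531 and 0.185 without vehicle replicates 2 or 3 or any low-dose replicate), low-dose Zizyphi (0.059 to 0.114 without vehicle replicates 2 or 3 or low-dose replicates 1 or 3) and medium-dose Zizyphi (0.0742 to 0.244 without any vehicle replicate or medium-dose replicates 2 or 3).

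ABCB1 (ENSG00000085563, chromosome 7, 87503633 to 87713323, minus strand), which encodes P-glycoprotein, the multidrug efflux pump, varied little. The vehicle libraries were at 58.5, 57.1 and 54.7 CPM and the high-dose Schisandrae libraries at 74.2, 72.0 and 67.9 CPM. The groups did not overlap, and the rise was 0.33 ± 0.062 on the log2 scale (edgeR adjusted p = 8.89e-05). Wortmannin (63.6, 62.2 and 65.3 CPM; 0.17 ± 0.062, adjusted p = 0.0361) and high-dose Polygalae (61.0, 62.6 and 67.7 CPM; 0.17 ± 0.062, adjusted p = 0.0496) were also called. The call with wortmannin ended without any vehicle replicate or wortmannin replicates 1 or 3 (adjusted p between 0.0526 and 0.153), and that with Polygalae without any single library of either group (0.0814 to 0.316). Its group means ran from 56.8 CPM in the vehicle to 71.4 CPM, a range of 1.26-fold, where ABCC2 spanned 2.01-fold, CYP3A5 2.36-fold and CYP3A7 2.22-fold. Low-dose Liriopis had 1 library at 74.7 CPM beside others at 60.5 and 61.3 CPM. That library, replicate 1, was the lowest of the series in GC slope (-0.169).

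**Figure D4:**
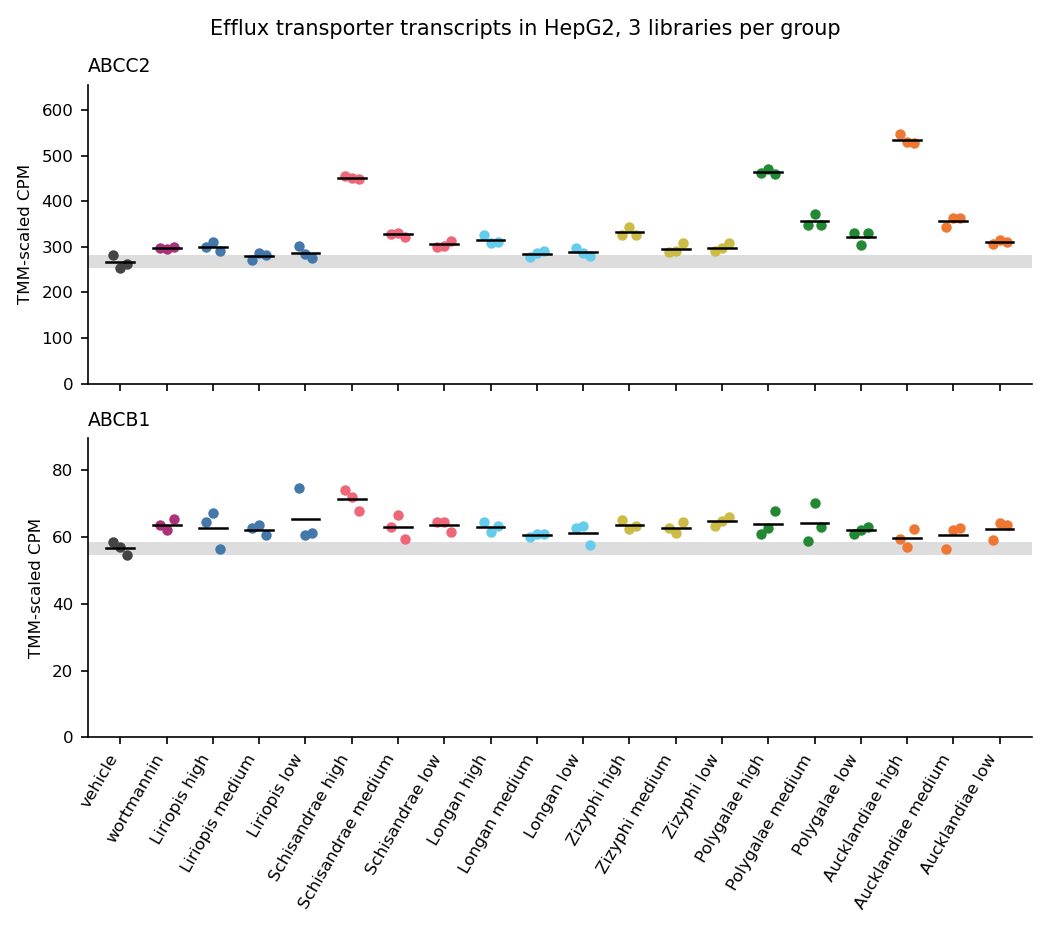
TMM-scaled CPM (vertical axis, from 0) of ABCC2 (top) and ABCB1 (bottom) in each of the 60 libraries, by group (horizontal axis), with a line at the mean and a grey band over the range of the vehicle. ABCC2 steps up with dose for Schisandrae, Polygalae and Aucklandiae, to means of 452, 464 and 535 CPM, while the highest ABCB1 group reaches 71.4 CPM.

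High and low doses of an extract share a set of sample codes and no vehicle library. CYP3A5 and ABCC2 rose between these doses with Schisandrae (2 of 7 genes; background 5.19% of genes higher), by 1.09 ± 0.10 and 0.57 ± 0.040 on the log2 scale (edgeR adjusted p = 2.62e-11 and 2.25e-15), and with Aucklandiae (2 of 7; background 7.77%), by 0.40 ± 0.11 and 0.79 ± 0.040 (adjusted p = 0.00686 and 8.98e-21). The CYP3A5 call with Aucklandiae ended without high-dose replicate 1 or low-dose replicate 3 (adjusted p = 0.0621 and 0.0601). Polygalae raised ABCC2 only (1 of 7; background 1.23%), by 0.53 ± 0.040 (adjusted p = 8.18e-14). CYP3A7 lay lower at the high than at the low dose of Polygalae, by a log2 fold change of -0.19 ± 0.14 that did not pass the test (adjusted p = 0.592). With Aucklandiae every high-dose library of CYP3A7 lay below every low-dose library, and that difference did not pass either (-0.32 ± 0.16, adjusted p = 0.176).

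Zizyphi raised CYP3A5 between its doses (1 of 7; background 0.212%), by 0.43 ± 0.10 on the log2 scale with an edgeR adjusted p of 0.0492. That call ended without any 1 of its 6 libraries (adjusted p between 0.0871 and 0.289), and DESeq2 gave no adjusted p for CYP3A5 here. With the replicate number as a block, the adjusted p was 0.0563 over all libraries and 0.0368 within the set. ABCC2 had a log2 fold change of 0.15 ± 0.040 in the same comparison and was not called by edgeR (adjusted p = 0.0752; DESeq2 adjusted p = 0.0108). ABCB1 between the doses of Schisandrae had a log2 fold change of 0.17 ± 0.062 with an adjusted p of 0.0824. With the replicate block that adjusted p was 0.0869 over all libraries and 0.0284 within the set. Liriopis and Longan gave 0 of 7 calls by edgeR and by DESeq2 (backgrounds 0% and 0.00605% of genes higher), with 1 and 2 genes at an unadjusted p under 0.05. In Longan these were CYP3A5 (4.02 ± 0.398 CPM at the low and 5.00 ± 0.057 CPM at the high dose, log2 fold change 0.31 ± 0.11, adjusted p = 1) and ABCC2 (288 ± 8.57 and 315 ± 9.76 CPM, 0.13 ± 0.040, adjusted p = 1), and for both genes every high-dose library lay above every low-dose library.

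**Figure D5:**
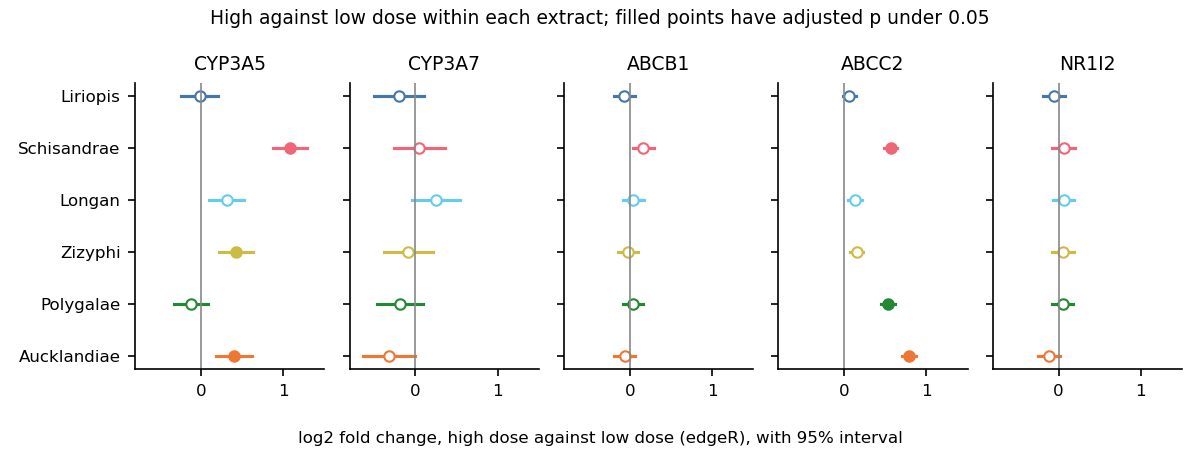
Log2 fold changes of the high against the low dose (horizontal axis, edgeR, bars give 95% intervals) within each of the 6 extracts (rows) for the 5 genes measured in every library, with filled points for an adjusted p under 0.05. Filled points are limited to CYP3A5 (Schisandrae, Zizyphi and Aucklandiae) and ABCC2 (Schisandrae, Polygalae and Aucklandiae).

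Whether extracts of a set differed in this response was tested on the difference of the high-low changes. Schisandrae exceeded Liriopis at the same doses for 2 of 7 genes (background 2.69% of genes higher): CYP3A5 by 1.10 ± 0.15 (edgeR adjusted p = 8.14e-07) and ABCC2 by 0.50 ± 0.057 on the log2 scale (adjusted p = 7.02e-09). Aucklandiae exceeded Polygalae for the same 2 (background 4.18%), CYP3A5 by 0.52 ± 0.15 (adjusted p = 0.022) and ABCC2 by 0.25 ± 0.056 (adjusted p = 0.00181), with doses that differ (500 and 20 against 450 and 18 µg/mL). For CYP3A5 that call ended without any 1 of 6 libraries (high-dose Polygalae replicates 1 and 3, low-dose Polygalae replicate 1, high-dose Aucklandiae replicate 1, low-dose Aucklandiae replicates 2 and 3; adjusted p between 0.0556 and 0.0825). Zizyphi and Longan gave 0 of 7 by edgeR and by DESeq2 and 0 at an unadjusted p under 0.05 (background 0%): for CYP3A5 the difference was 0.12 (95% interval -0.19 to 0.42) and for ABCC2 0.023 (-0.090 to 0.14), so the call of CYP3A5 in Zizyphi alone does not show that these extracts differ.

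At the medium doses, 5 of 42 tests against the vehicle were called higher (background 1.87%): ABCC2 with Schisandrae, Zizyphi, Polygalae and Aucklandiae, and CYP3A7 with Polygalae. At the low doses there were 6 of 42 (background 2.07%), of which Polygalae, where 8.63% of genes were higher, held 3 (CYP3A5, CYP3A7 and ABCC2). The high doses had 11 of 42 (background 5.95%). Log2 fold changes above 0 were as frequent at each dose, 38 of 42, though all share the vehicle libraries.

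Lists of neighbouring genes were described by counts. Among 24 other PXR and CAR targets, 17 were testable; the others, among them CYP2A6, UGT1A3 and SLCO1B1, were too low. Of the 17, 9 rose and 2 fell with wortmannin (median log2 fold change 0.15, against 0.0081 over all tested genes), and 9 rose and 1 fell with high-dose Aucklandiae (0.23, against 0.00033). With high-dose Polygalae 5 rose and 1 fell (0.12, against 0.0061), whereas with high-dose Schisandrae 2 rose and 6 fell (-0.17, against -0.0055), beside the rises of CYP3A5, ABCB1 and ABCC2. Over all tested genes, 16.2% were called lower with wortmannin, 7.25% with Schisandrae, 9.94% with Polygalae and 12.5% with Aucklandiae. GSTA1, a glutathione transferase, went from 42.0 ± 2.78 CPM in the vehicle to 20.1 ± 2.05 CPM with Schisandrae and to 124 ± 8.2 CPM with Aucklandiae at the high dose (log2 fold changes -1.07 ± 0.15 and 1.56 ± 0.14, edgeR adjusted p = 3.46e-07 and 1.21e-12), although reads may be exchanged with its close copy GSTA2. SLC13A5, a citrate importer, rose with wortmannin from 191 ± 9.26 to 358 ± 3.05 CPM (0.91 ± 0.043, adjusted p = 5.5e-22). SULT2A1, a steroid sulfotransferase, rose with high-dose Polygalae from 92.6 ± 3.29 to 138 ± 1.74 CPM (0.57 ± 0.072, adjusted p = 4.17e-08).

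Other efflux pumps (9 of 10 testable; ABCB11 was too low) were counted in the same treatments. With high-dose Aucklandiae 6 rose and 1 fell (median 0.44; 13.6% of all tested genes higher and 12.5% lower), with Polygalae 5 and 1 (0.23; 10.2% and 9.94%), with Schisandrae 4 and 1 (0.19; 8.4% and 7.25%) and with wortmannin 4 and 1 (0.15; 16.4% and 16.2%). ABCC3, the pump of the sinusoidal side, rose with Aucklandiae from 56.5 ± 1.82 to 147 ± 2.77 CPM (log2 fold change 1.38 ± 0.055, edgeR adjusted p = 3.18e-25), and ABCG2, the breast cancer resistance protein, from 11.1 ± 0.47 to 18.5 ± 1.6 CPM (0.74 ± 0.088). ABCG2 rose with Schisandrae to 15.6 ± 0.5 CPM (0.50 ± 0.090) and ABCC1 to 207 ± 9.6 CPM from 154 ± 3.94 CPM (0.42 ± 0.065). ABCC3 and ABCG2 also belong to the list of targets above. So do ALAS1 and POR among the genes of electron and heme supply below, and CYP3A43 and CYP4F12 among the testable other P450 genes. The counts of these lists are thus not separate.

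Genes that supply P450 enzymes with electrons and heme (12 of 12 testable) rose in 7 cases with high-dose Aucklandiae (median 0.18; 13.6% of all tested genes higher), among them ALAS1, the first enzyme of heme synthesis, from 41.9 ± 0.986 to 70.1 ± 3.88 CPM (log2 fold change 0.74 ± 0.049, edgeR adjusted p = 1.07e-16), and FECH, the last, from 22.9 ± 0.803 to 33.9 ± 0.921 CPM (0.57 ± 0.056). With wortmannin 6 rose and 1 fell (median 0.13; 16.4% of all tested genes higher and 16.2% lower). Of 13 testable other P450 genes, 11 rose with wortmannin (median 0.57; 16.4% of all tested genes higher), such as CYP4F3, a fatty acid hydroxylase with close copies in its family, from 21.3 ± 0.839 to 41.4 ± 1.24 CPM (0.96 ± 0.073, adjusted p = 1.04e-14). With high-dose Polygalae 2 rose and 1 fell (median 0.050; 10.2% and 9.94% of all tested genes), led by CYP1A1, a target of the aryl hydrocarbon receptor, which went from 7.20 ± 0.044 to 62.1 ± 4.36 CPM (3.11 ± 0.090, adjusted p = 2.59e-30). CYP1A1 was also called higher with high-dose Schisandrae (1.39 ± 0.094), Aucklandiae (1.18 ± 0.095) and Zizyphi (0.84 ± 0.097), and with wortmannin (0.92 ± 0.096). It was not called with high-dose Liriopis or Longan.

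Among 20 partners and regulators of the receptors, all testable, 5 rose and 5 fell with wortmannin, 4 and 6 with high-dose Schisandrae, 3 and 7 with Aucklandiae and 1 and 5 with Polygalae. Over all tested genes, the shares called higher and lower were 16.4% and 16.2% with wortmannin, 8.4% and 7.25% with Schisandrae, 13.6% and 12.5% with Aucklandiae, and 10.2% and 9.94% with Polygalae, so the 3 of 20 that rose with Aucklandiae are near the background. NR0B2, the corepressor SHP, rose with Schisandrae from 38.6 ± 3.45 to 55.0 ± 8.95 CPM (log2 fold change 0.51 ± 0.14). PPARGC1A, a coactivator, rose with wortmannin from 20.7 ± 2.92 to 30.7 ± 2.36 CPM (0.57 ± 0.084). HSP90AA1, a chaperone that holds CAR in the cytoplasm, went from 1810.0 ± 103 to 1305 ± 12 CPM with Polygalae (-0.47 ± 0.060, adjusted p = 6.54e-08).

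The genes whose group means were most like those of each gene, by Pearson's r of log2 CPM over the 20 groups among 10626 or 10627 genes, are given as a description. For ABCC2 they were GPAT3 (r = 0.961), SRXN1 (0.949) and ABCC1 (0.946). For CYP3A5 they were ARFGEF3 (0.915), ABR (0.904) and ABLIM3 (0.877), and for CYP3A7 SULT1C2 (0.903), WDFY2 (0.87) and SV2A (0.856). ABCB1 was closest to ADGRG6 (0.896), PHKA2 (0.812) and SLC38A2 (0.799), and NR1I2 to C17orf100 (0.778), SH3YL1 (0.776) and USP27X (0.772). Only genes of at least 5 CPM over all libraries could be found this way, which left out CYP3A7, NR1I3, CYP3A4, CYP2C8 and CYP2B6. The search thus cannot show whether these are like the others. CYP3A5, ABCB1, ABCC2 and NR1I2 could be found, and none was among the closest 3 of another of these 5. All group means share their libraries and depth.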

How the data were processed

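The values start from expected counts per gene that the authors deposited for 60 HepG2 libraries. Per the submitters' processing notes, RSEM 1.3.3 and STAR 2.7.3a were used with the hg38 (GRCh38) build, as were Trim Galore 0.6.5 and FastQC 0.11.9. The sources used here give neither the annotation release nor the strand setting. Expected counts were rounded (10.3% were not whole), and reads shared by similar genes had been divided by estimation.

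All 60 libraries entered one edgeR 4.0.16 quasi-likelihood model of 20 groups (R 4.3.3, limma 3.58.1) after filterByExpr (minimum count 10; 16517 genes kept) and TMM scaling (factors 0.92 to 1.08), with Benjamini-Hochberg adjustment over all tested genes and a threshold of 0.05. CPM are TMM-scaled. SE is the log2 fold change divided by the square root of F. Gene positions are from GENCODE on GRCh38. In simulated counts for wortmannin against vehicle over 16517 genes, 50 genes with a mean of at least 20 counts were changed at each size. Of these, 42% of those changed 1.25-fold were recovered, 70% of those changed 1.5-fold, 86% of those changed 2-fold and 100% of those changed 4-fold. CYP3A4 and NR1I3 have lower mean counts, so this recovery does not cover them. All other genes were simulated without a change between wortmannin and vehicle, whereas 32.6% of genes were called in the real comparison. The adjusted p depends on that share, so the recovery need not be that of the real comparison. There were 8 false calls. Alternatives were RLE scaling, no filter or a stricter one, DESeq2 1.42.0, only the groups compared, a replicate block, leaving out each library, and leaving out the 4 libraries lowest in GC slope.

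Same-numbered samples deviated together (every pair's r over 0.1, 10627 genes) in 3 comparisons: low-dose Liriopis against vehicle (0.522, 0.315 and 0.23), Schisandrae high against low (0.336, 0.165 and 0.306) and Zizyphi high against low (0.335, 0.571 and 0.166). Within groups, all 60 pairs of libraries differed beyond sampling noise (lowest chi-square per degree of freedom 2.58); pairs across groups were not compared.

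The genes and lists were chosen with earlier results of these data known. Named list genes are the 2 with the largest change per list and comparison among those called, at 1 CPM or more in a group mean and without overlap between groups; likeness was sought among genes of at least 5 CPM, with 0.5 CPM added before the log2.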

Additional observations from a re-analysis of the deposited data

Results flagged for a closer look

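The change from low to high dose differed between extracts of the same code set for CYP3A5 and ABCC2, by a test of the difference itself within the model of all libraries. CYP3A5 changed more with Schisandrae than with Liriopis, by 1.10 on the log2 scale (edgeR adjusted p = 8.14e-07), and ABCC2 by 0.502 (adjusted p = 7.02e-09). CYP3A5 changed more with Aucklandiae than with Polygalae, by 0.524 (adjusted p = 0.022), and ABCC2 by 0.254 (adjusted p = 0.00181), at doses that are not the same. The difference of CYP3A5 between Aucklandiae and Polygalae lost its call without any 1 of 6 libraries (adjusted p between 0.0556 and 0.0825).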

How the results depend on the processing

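Of 38 calls among 196 tests, 21 were kept in every alternative, and 0 of the 525 alternative values of these calls changed sign. Without a filter on low counts, wortmannin called 3 genes in place of 6, high-dose Aucklandiae 1 in place of 2, the low doses 3 in place of 6, Zizyphi high against low 0 in place of 1, Aucklandiae high against low 1 in place of 2, and the difference between Aucklandiae and Polygalae 0 in place of 2. With only the groups compared, the counts were 0 for high-dose Longan (1), 1 for high-dose Zizyphi (2), 2 for the low doses (6), 0 for Zizyphi high against low (1), 1 for Aucklandiae high against low (2) and 1 for the difference between Aucklandiae and Polygalae (2). DESeq2 called 1 with high-dose Liriopis (0), 5 with wortmannin (6), 2 with high-dose Polygalae (3) and 6 at the medium doses (5), and as many as edgeR in the other comparisons. For Zizyphi high against low the gene was not the same: DESeq2 called ABCC2 and gave no adjusted p for CYP3A5, the gene called by edgeR. Without the 4 libraries lowest in GC slope, high-dose Liriopis had 1 (0), Zizyphi 1 (2), Aucklandiae 1 (2), and Zizyphi high against low 0 (1). There the calls of CYP3A4 with wortmannin (edgeR adjusted p = 0.195), ABCC2 with low-dose Schisandrae (0.0587) and medium-dose Zizyphi (0.0728), and CYP3A5 with low-dose Polygalae (0.167) also ended. ABCB1 with medium-dose Polygalae gained a call in that setting (0.0442) and with the stricter filter (0.0485). RLE scaling gave 0 for Zizyphi high against low. It also ended the calls of ABCB1 with high-dose Polygalae (edgeR adjusted p = 0.07) and ABCC2 with medium-dose Zizyphi (0.0548). Both calls ended without a filter too (0.133 and 0.314). With only the groups compared, those of ABCC2 with medium-dose Zizyphi (0.462) and CYP3A4 with wortmannin (0.0616) ended. Fewer samples or more genes tested are part of some of these settings, and the cause was otherwise not tested. Leaving out 1 library gave 4 to 6 genes with wortmannin, 0 with high-dose Liriopis, 3 with Schisandrae, 1 with Longan, 1 to 3 with Zizyphi, 1 to 2 with Polygalae and 1 to 2 with Aucklandiae. High against low gave 0 for Liriopis, 2 for Schisandrae, 0 for Longan, 0 for Zizyphi, 1 for Polygalae and 1 to 2 for Aucklandiae. The medium doses gave 4 to 7, the low doses 4 to 7, and the differences 2 (Schisandrae and Liriopis), 0 (Zizyphi and Longan) and 1 to 2 (Aucklandiae and Polygalae).

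With a replicate block fitted across the 60 libraries, Zizyphi high against low had 0 calls in place of 1, and ABCB1 with high-dose Polygalae lost its call (edgeR adjusted p = 0.0515). Among the 3 comparisons whose numbers paired, the block changed no other call but that of ABCB1 between the doses of Schisandrae given above. Over all genes, high-dose Liriopis had 8 calls, against 515 without a filter, 55 by DESeq2 and 1 with only the groups compared; high-dose Longan had 291, against 505, 475 and 12, and high-dose Zizyphi 730, against 173 with only the groups compared. Low counts limit CYP3A4, CYP2B6, CYP2C8 and NR1I3.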
